A study of Ovis aries with 2 samples.

Results

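The 3 D-type cyclin genes (CCND1, CCND2 and CCND3) and the 3 genes of the Cip/Kip inhibitors of cyclin-dependent kinases (CDKN1A, CDKN1B and CDKN1C) were followed across all cells of lambskin from straight wool and curly wool Hu sheep. They were taken by name from the table, where all 6 were present among 18161 genes. Body-side skin was collected at day 3 from 3 straight wool and 3 curly wool lambs (termed waved wool in the sample labels), and the skin of each wool type was pooled into 1 single-cell library on the 10× Genomics platform. Each pool was a mixture of cells from microdissected follicles and cells from dissociated whole skin, so the abundance of a cell type also reflects the mixing. No treatment or genetic change was applied, and nothing separates the lambs within a pool. With 1 library per wool type, differences between the libraries are given with counting error only, and no test between wool types was possible.

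Cyclins D1, D2 and D3 bind CDK4 and CDK6, and the active kinases phosphorylate the retinoblastoma protein, which releases E2F factors and lets a cell pass from G1 into S phase. The Cip/Kip proteins p21 (CDKN1A), p27 (CDKN1B) and p57 (CDKN1C) bind cyclin-kinase complexes and hold back CDK2 in particular. In the growing follicle, matrix cells around the dermal papilla divide rapidly, then leave the cell cycle while they keratinise into the hair shaft and the inner root sheath (IRS).

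The straight library held 6452 cells and 57956122 UMIs (each UMI stands for 1 captured RNA molecule), and the curly library held 7585 cells and 77634565 UMIs. Median depth was close, at 7373.5 and 7495 UMIs per cell. The libraries had 70 cell barcodes in common. Clustering without the 6 genes and their pathway partners yielded 20 populations, of which 16 could be named from marker genes and 4 are called by a leading gene or a number. Levels are UMIs of a gene per 1000000 UMIs of the population (CPM), with exact Poisson 95% intervals in parentheses that cover counting error only. The TPSB2-type immune-like population (TPSB2 is a mast cell tryptase) and the LGR5-high hair follicle stem cell (HFSC)-like population were shallow. The latter had medians of only 869.5 and 1298 UMIs per cell. KRT71, a keratin of the IRS, stood at 51.0 to 178 CPM (straight) and 95.7 to 436 CPM (curly) in the 19 populations that are not IRS-like. The matrix-like population is among these, and how much of the KRT71 was free RNA was not tested.

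CCND2 was highest in the proliferating root of the follicle. The matrix-like population (whose cells also carried cycling markers) had 177 CPM (169 to 186) in the straight and 115 CPM (110 to 120) in the curly library, clear of the next population in each. With finer clusters (resolution 0.8), an unnamed cluster led by STC1 stood above it, at 232 and 133 CPM. The PDPN-type HFSC-like population followed in the straight library with 125 CPM (111 to 141), and had 62.2 CPM (50.5 to 75.9) in the curly library. In the curly order, the ACTG2-rich contractile-like (67.7 CPM), PDPN-type HFSC-like and PTHLH-rich (53.8 CPM) populations were not separated by their intervals. The lowest levels among the 14 populations with at least 100 CCND2 UMIs were in FLG-type suprabasal interfollicular epidermis (IFE)-like cells, at 27.3 and 12.8 CPM, and in the KRT79-type suprabasal IFE-like cells of the curly library, at 10.9 CPM (8.66 to 13.5). The sweat gland-like population gave no CCND2 UMI at all, with 0 among 610243 UMIs in the straight and 0 among 507720 in the curly library. A count of 0 allows up to 4.92 and 5.91 CPM (3 counts of the total). CCND1 was abundant in the same cells, at 470 CPM (417 to 528) and 234 CPM (194 to 280).

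CCND1 stood over all cells at 224 CPM (220 to 228) in the straight and 210 CPM (207 to 213) in the curly library. In the straight library its leading populations were TPSB2-type immune-like (521 CPM, 480 to 566), DES-rich contractile-like (514 CPM, 444 to 591) and sweat gland-like cells, whose intervals overlapped. In the curly library the KRT79-type (391 CPM, 377 to 405) and FLG-type (372 CPM, 356 to 388) suprabasal IFE-like cells led. Their intervals overlapped, and so did the wide one of TPSB2-type immune-like cells (294 CPM, 218 to 388, from 50 UMIs). The matrix-like population lay in the middle of the order, with 247 CPM (237 to 257) and 210 CPM (203 to 217). Dermal papilla cell (DPC)-like and PDPN-type HFSC-like cells were low in both libraries, with 35.8 and 73.7 CPM in the former and 58.1 and 74.3 CPM in the latter.

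CCND3 had another distribution. It was highest in the ACTG2-rich contractile-like population, at 102 CPM (79.2 to 130) and 161 CPM (146 to 178), and next in the PDPN-type HFSC-like population, at 87.6 CPM (75.7 to 101) and 140 CPM (122 to 160). In both libraries the intervals of these neighbours overlapped. At resolution 0.8 a suprabasal IFE-like cluster led by LOC114113225 had 166 CPM in the curly library, above 161 CPM in the ACTG2-led cluster. With CPM averaged over cells, sweat gland-like cells led in the straight library. With a stricter minimum of genes HFSC-like cells led in both, but the ACTG2-rich population (48 straight cells) was not ranked. Little CCND3 was found in the keratinising follicle, with 12.9 CPM in hair shaft-like cells of the straight library and 16.9 and 14.5 CPM in IRS-like cells. The matrix-like level of CCND3 was 18.3 CPM (15.6 to 21.4) and 32.4 CPM (29.7 to 35.1), far under that of CCND1 and CCND2 in the same cells.

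**Figure D1:**
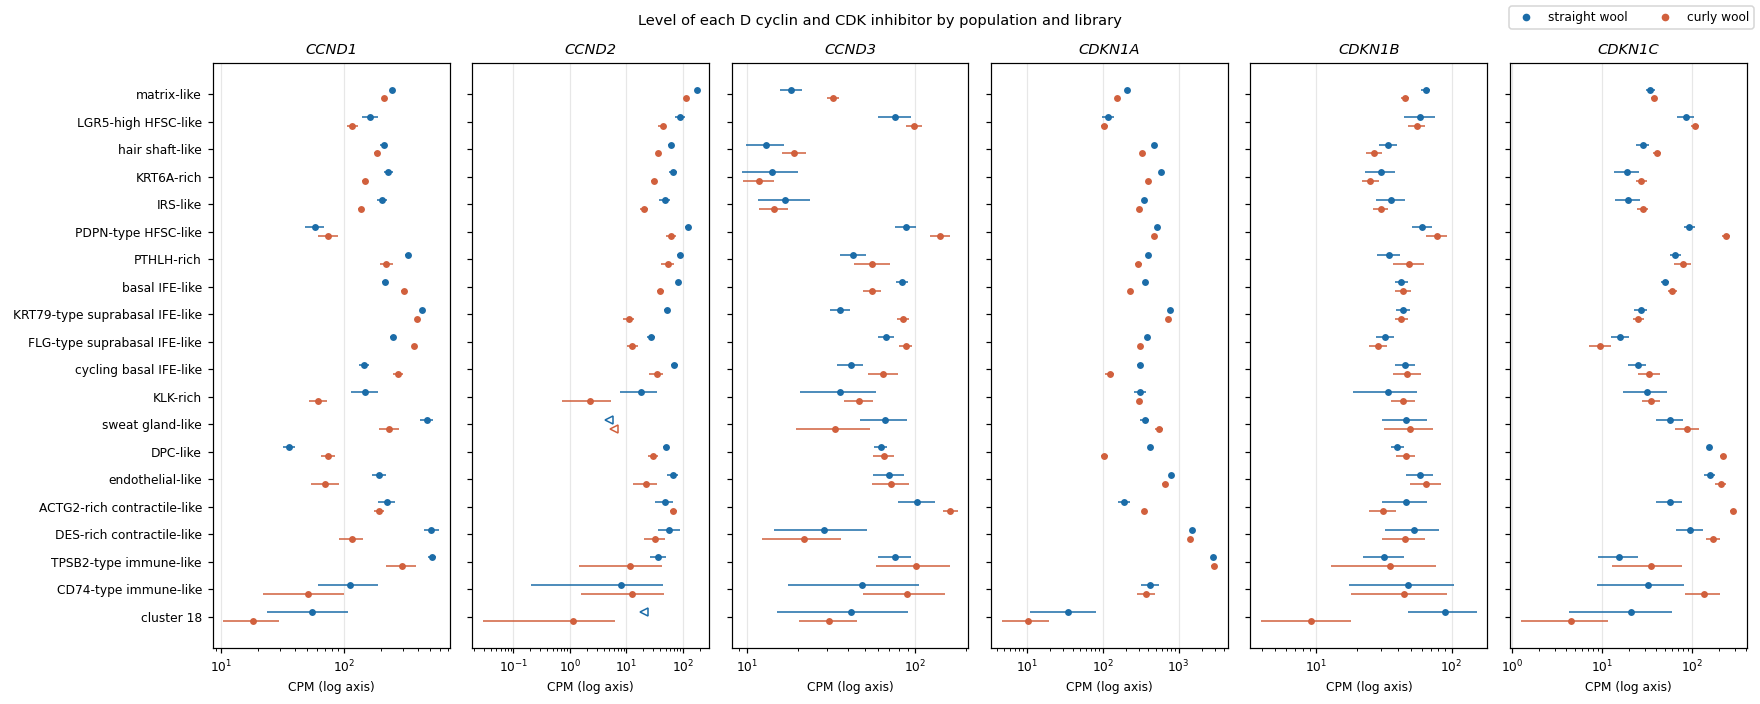
Level of each gene in CPM (horizontal log axis) in the 20 populations, with straight wool in blue and curly wool in red; points are summed UMIs scaled to CPM, bars are exact Poisson 95% intervals, and an open triangle marks 0 UMIs, placed at 3 counts. CCND2 stands highest in matrix-like cells and at 0 UMIs in sweat gland-like cells in both libraries, and CDKN1A spans from 10.2 to 2942 CPM in the curly library.

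The mix of D cyclin transcripts differed among populations. These are shares of UMIs, which count molecules and are not divided by gene length. CCND1 made up 63.8% of the D cyclin UMIs of the straight library and 68.1% of those of the curly library. In matrix-like cells, CCND2 supplied 40.0% and 32.1% of them, and CCND3 only 4.14% and 9.07%. In DPC-like cells CCND3 was the largest part in the straight library (42.2%), ahead of CCND2 (33.6%) and CCND1 (24.3%), whereas CCND1 led in the curly library (43.9%). PDPN-type HFSC-like cells were led by CCND2 in the straight library (46.1%) and by CCND3 in the curly library (50.7%). In KRT79-type suprabasal IFE-like cells CCND1 made up 83.3% and 80.5%, and CCND2 only 9.88% and 2.24%.

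**Figure D2:**
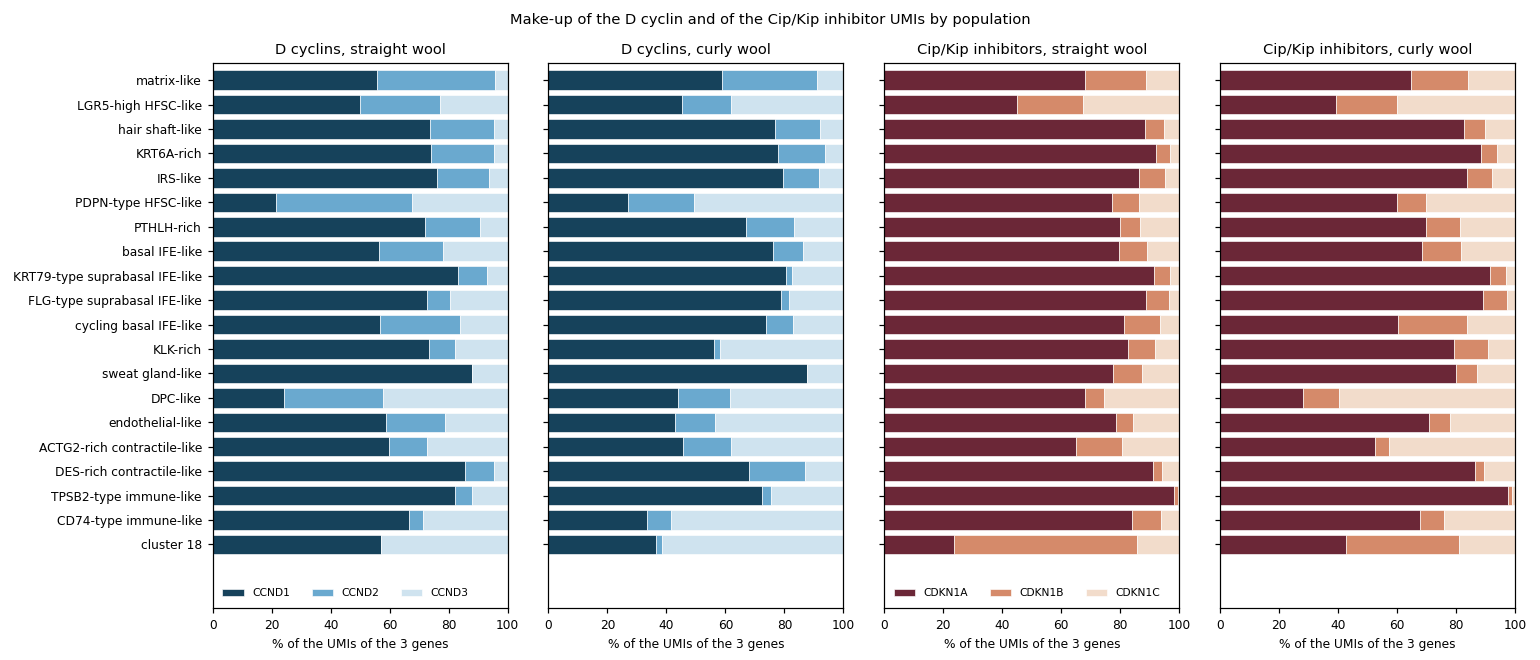
Share of each gene in the UMIs of the 3 D cyclins (left pair of panels) and of the 3 Cip/Kip inhibitors (right pair), in % on the horizontal axis, for each population and library. CCND1 and CDKN1A fill most bars, while DPC-like and PDPN-type HFSC-like bars carry large parts of CCND2, CCND3 and, for the inhibitors, CDKN1C.

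Among the inhibitors, CDKN1A (p21, which is induced by stress and DNA damage) had the widest range. The TPSB2-type immune-like population stood at 2873 CPM (2774 to 2975) in the straight and 2942 CPM (2690 to 3212) in the curly library. DES-rich contractile-like cells followed with 1513 CPM (1392 to 1641) and 1398 CPM (1311 to 1489). Both populations were clear of every other one in both libraries. Their levels were lower in cells over a stricter minimum of genes, where CDKN1A was 1698 CPM in 40 straight and 1150 CPM in 4 curly TPSB2-type immune-like cells. DES-rich contractile-like cells then had 990 and 583 CPM, and endothelial-like cells 838 and 768 CPM. With all cells used, endothelial-like cells had 793 and 665 CPM and KRT79-type suprabasal IFE-like cells 766 and 726 CPM. Matrix-like cells were in the lower part of the order, with 209 CPM (200 to 219) and 153 CPM (148 to 159), and LGR5-high HFSC-like cells had 117 and 105 CPM. With finer clusters, the HFSC-like cluster led by LGR5 had 60.3 and 55.6 CPM. An unnamed cluster led by HBB, with medians of only 656 and 718.5 UMIs per cell, had 389 and 385 CPM. Summed levels of 13 genes that respond to tissue dissociation were 7941 and 6957 CPM over all cells. This list is called immediate early here, though it also holds the heat shock gene HSPA1A. The summed levels were lower than over all cells in TPSB2-type immune-like cells (6268 and 5413 CPM), but higher in DES-rich contractile-like (10139 and 10624 CPM) and KRT79-type suprabasal IFE-like cells (9552 and 13732 CPM). In endothelial-like cells they were 7459 and 11798 CPM, and in PDPN-type HFSC-like cells, where CDKN1A was 523 and 477 CPM, 12247 and 17688 CPM. Their part in the CDKN1A levels was not tested.

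CDKN1B (p27, which accumulates in resting cells and is mostly controlled at the protein level) was the flattest of the 6 genes. Over all cells it stood at 44.5 CPM (42.8 to 46.2) and 38.8 CPM (37.5 to 40.3). Populations other than the small cluster 18 lay between 25.1 CPM, in the KRT6A-rich cells of the curly library, and 77.5 CPM, in its PDPN-type HFSC-like cells. In the straight library matrix-like cells had 64.3 CPM (59.2 to 69.8), not separated from PDPN-type HFSC-like cells at 60.8 CPM (51.0 to 72.0).

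CDKN1C (p57, the product of an imprinted gene) was high in dermal, vascular, HFSC-like and DES-rich contractile-like populations. In ACTG2-rich contractile-like cells of the straight library it stood at 56.5 CPM, the same as over all cells. It was highest in endothelial-like (156 CPM, 136 to 179) and DPC-like cells (156 CPM, 147 to 165) of the straight library, whose levels could not be separated. In the curly library ACTG2-rich contractile-like cells led with 286 CPM (266 to 308), before PDPN-type HFSC-like (239 CPM, 216 to 265), DPC-like (222 CPM, 205 to 239) and endothelial-like cells (207 CPM, 178 to 240). Of the populations with at least 100 CDKN1C UMIs it was lowest in FLG-type suprabasal IFE-like cells, with 15.7 CPM (12.4 to 19.6) and 9.55 CPM (7.21 to 12.4). With finer clusters, a small fibroblast-like cluster led by COL1A1 split from the DPC-like population and carried the highest CDKN1C level, at 377 CPM from 30 UMIs and 613 CPM from 58 UMIs in cells of only 902 and 888 median UMIs. CDKN1C supplied 59.6% of the Cip/Kip UMIs of DPC-like cells in the curly library but 25.5% in the straight library, where CDKN1A supplied 68.0%.

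CCND2 was lower in the curly library nearly everywhere. Over all cells, 78.9 CPM (76.7 to 81.2) in the straight library stood against 47.7 CPM (46.2 to 49.3) in the curly library, a log2 ratio of -0.73 (-0.79 to -0.66). It was the only one of the 6 genes past 1.5 times over all cells, where 23.1% of 13196 genes with at least 100 UMIs were past this fold and the median log2 ratio was -0.18. Relative to that median the CCND2 ratio was -0.54, within 1.5 times, CDKN1A went from -0.54 to -0.35, and CCND1 turned from -0.10 to 0.09. By population CCND2 was lower in the curly library by 1.5 times or more in 13 of the 14 populations with at least 100 CCND2 UMIs. Of 1841 genes with that many UMIs in all 14, 8 genes (0.435%), CCND2 included, were lower as often. The other 7, named here after their values were seen, were ACTB, CCT6A, LOC101108163, LOC101117184, METTL23, RPL37A and TUBB. ACTB and TUBB encode cytoskeletal proteins and RPL37A a ribosomal protein, with medians over the populations of -0.92 for ACTB and -1.25 for RPL37A, beside -1.04 for CCND2.

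The size of the CCND2 difference varied with the population. Matrix-like cells had a log2 ratio of -0.63 (-0.72 to -0.53), basal IFE-like cells, with 81.9 against 39.9 CPM, one of -1.04 (-1.28 to -0.80), and KRT79-type suprabasal IFE-like cells, with 51.2 against 10.9 CPM, one of -2.23 (-2.60 to -1.88). In the KRT79-type population the 5 basal IFE markers summed to 14488 and 5416 CPM and the 6 suprabasal IFE markers to 32452 and 54751 CPM. In basal IFE-like cells the suprabasal markers summed to 1204 and 3827 CPM. The part of these markers in the CCND2 differences was not tested. The ACTG2-rich contractile-like population was the exception, with 47.3 CPM (32.1 to 67.1) in the straight and 67.7 CPM (57.9 to 78.8) in the curly library. That difference was within 1.5 times. Of the DPC-like cells, those of a finer cluster led by FGF7 had 48.6 and 48.2 CPM and those of one led by SERPINF1 had 49.8 and 19.1 CPM. The share of cells with a CCND2 UMI, after thinning each cell to 3000 UMIs, was 40.8% (36.5 to 45.1) of 525 matrix-like cells in the straight and 28.0% (25.2 to 31.0) of 964 in the curly library, and 68.9% and 66.0% unthinned, at median depths of 15998.5 and 17511 UMIs. In sweat gland-like cells it was 0 of 79 and 0 of 64, which allows up to 3.80% and 4.69%, at median depths of 4772 and 5272 UMIs. In matrix-like cells, 112 straight and 109 curly thinned cells held UMIs of both CCND1 and CCND2. Of the straight cells with CCND2, 52.3% had CCND1, against 46.3% of all matrix-like cells, and in the curly library these shares were 40.4% and 41.5%.

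The other genes differed in both directions. Over the 6 genes there were 97 pairs of a gene and a population with at least 100 UMIs, and 37 of them were past 1.5 times, 12 higher and 25 lower in the curly library. Of all such pairs, over every gene measured, 20.2% were past the fold, 7.15% higher and 13.0% lower. Of the 37 pairs past the fold, 67.6% were lower, and 55.3% (21 of 38) when ratios were centred on the median gene of each population. CCND2 alone gave 13 of the 25 lower pairs. CDKN1B gave none, being within 1.5 times in all 15 populations where it had enough UMIs.

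**Figure D3:**
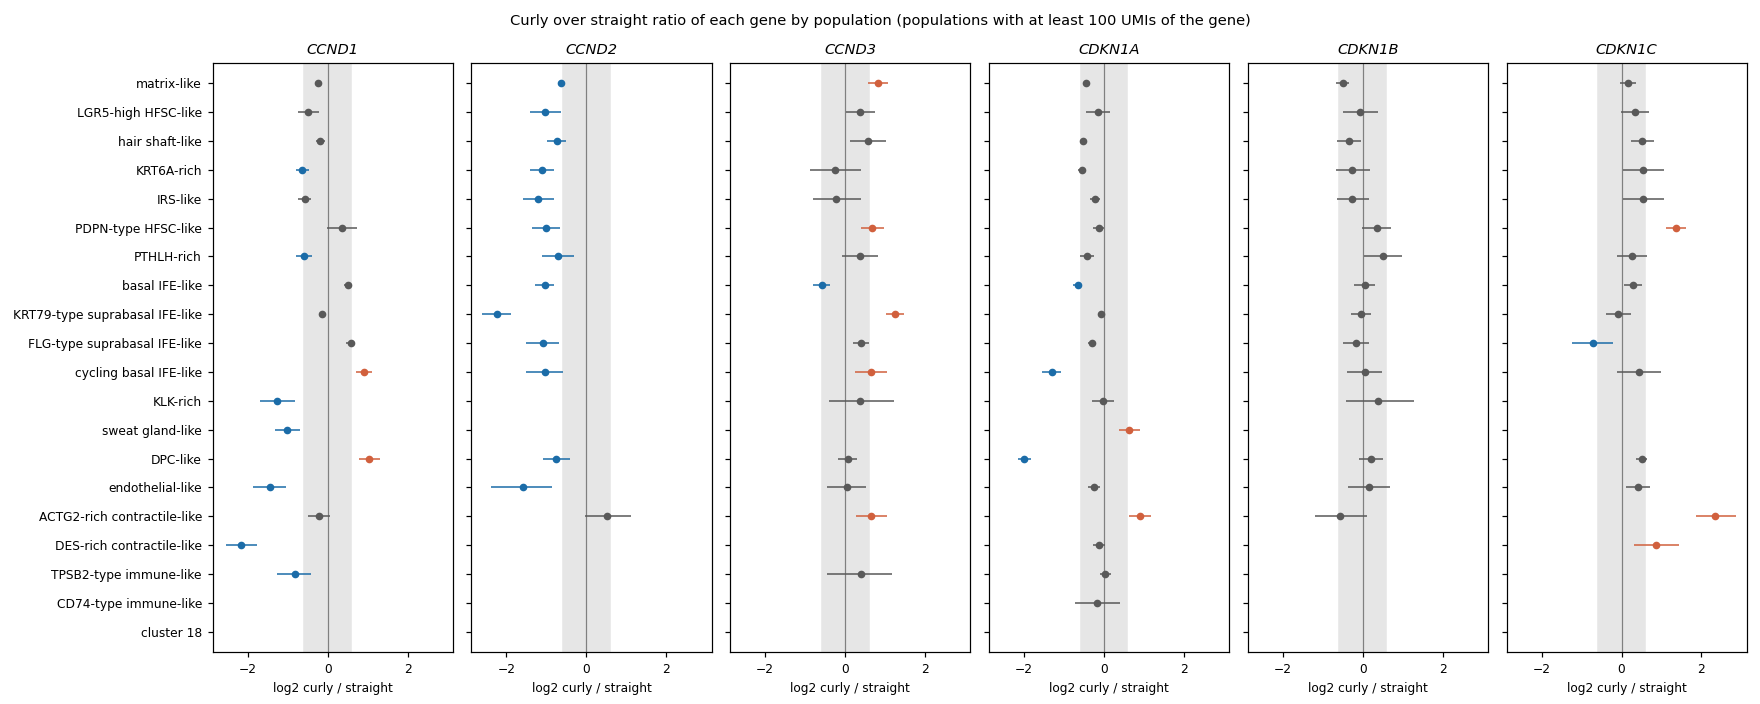
Log2 ratio of curly over straight for each gene in each population with at least 100 UMIs of the gene; bars are exact 95% intervals for counting error, the grey band spans 1.5 times either way, and points past it are red (higher in curly), blue (lower in curly) or grey (within). The CCND2 points lie left of the band in 13 of 14 populations, while all 15 CDKN1B points lie within it.

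CCND1 was higher in the curly library in DPC-like cells (35.8 against 73.7 CPM, log2 1.04, 0.79 to 1.30) and in cycling basal IFE-like cells (146 against 276 CPM, log2 0.92, 0.72 to 1.11). It was lower by the fold in 7 of 18 populations, most of all in DES-rich contractile-like cells, with 514 against 115 CPM (log2 -2.16, -2.55 to -1.77), and in endothelial-like cells, with 192 against 70.6 CPM. In the DES-rich population the 7 contractile markers summed to 10208 and 19735 CPM with none at 0, the 6 fibroblast markers to 2430 and 1035 CPM with MFAP5 and PI16 at 0 UMIs in both, and the 4 hair shaft markers to 78.6 and 482 CPM. Their part in its CCND1 difference was not tested. In DPC-like cells, where 22.7% of genes were past the fold, the 7 DPC markers summed to 9717 and 9456 CPM with none at 0. The 5 basal IFE markers in the table summed to 1075 CPM in the straight and 1694 CPM in the curly library, the 5 IRS markers to 208 and 654 CPM and the 6 matrix markers to 733 and 1479 CPM, with SHH at 0 UMIs in both. Their part in the CCND1 difference was not tested.

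CCND3 was higher in the curly library in 5 of 16 populations. The largest difference was in KRT79-type suprabasal IFE-like cells, at 35.6 CPM (30.9 to 40.8) against 84.1 CPM (77.7 to 90.9), where CCND2 differed in the opposite direction. In matrix-like cells the log2 ratio was 0.82 (0.57 to 1.08), where 10.9% of genes were past the fold. Among the 16 populations, basal IFE-like cells alone had less CCND3 in the curly library by the fold, with 83.5 against 55.5 CPM.

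The largest CDKN1A ratio was in the dermal papilla. DPC-like cells stood at 415 CPM (401 to 430) in the straight and 105 CPM (93.7 to 117) in the curly library, a log2 ratio of -1.99 (-2.16 to -1.83). Of the finer clusters, the one led by FGF7 (a growth factor secreted by the papilla), with 589 straight and 177 curly cells, had 549 against 69.0 CPM, a log2 ratio of -2.99 (-3.35 to -2.66). The SERPINF1-led cluster, with 649 and 482 cells, had 205 against 113 CPM. The SERPINF1-led cluster was the larger of them in both libraries, and by more in the curly library. Among thinned cells of the FGF7-led cluster, 60.2% of 576 straight and 14.7% of 170 curly cells had a CDKN1A UMI (75.0% and 27.1% unthinned, at median depths of 8138 and 5830 UMIs). No population lacked CDKN1A, and among thinned LGR5-high HFSC-like cells 12.4% and 13.6% had a UMI of it. In the FGF7-led cluster FGF7 itself was at 1084 and 851 CPM.

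In DPC-like cells the immediate early genes summed to 8786 and 7165 CPM, with 1 higher and 2 lower by the fold of the 9 with at least 100 UMIs. In the FGF7-led cluster they summed to 8265 and 5769 CPM. The part of these stress genes in the CDKN1A difference was not tested.

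CDKN1A was also lower in the curly library in cycling basal IFE-like cells, with 306 against 123 CPM (log2 -1.31, -1.55 to -1.08), and in basal IFE-like cells, with 356 against 225 CPM. It was higher by the fold in ACTG2-rich contractile-like (189 against 352 CPM) and sweat gland-like cells (356 against 553 CPM). Of all genes with at least 100 UMIs, 19.8% and 14.7% were higher by the fold in these populations. In the populations with most CDKN1A the log2 ratio was within the fold, at 0.03 (-0.10 to 0.17) in TPSB2-type immune-like and -0.11 (-0.26 to 0.04) in DES-rich contractile-like cells. With the stricter minimum of genes it became -0.56 in the former, from 40 and 4 cells, and -0.76, past the fold, in the latter, from 18 and 27 cells.

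CDKN1C was higher in the curly library in ACTG2-rich contractile-like cells, with 56.5 CPM (39.8 to 77.8) from 37 UMIs against 286 CPM (266 to 308) from 710 UMIs, a log2 ratio of 2.34 (1.86 to 2.86). Of 3251 genes with at least 100 UMIs in that population, 28.5% were past the fold in either direction, and 19.8% of the 3251 were higher by the fold. It held 81 straight and 272 curly cells, at median depths of 7002 and 10690 UMIs. CDKN1C was higher too in PDPN-type HFSC-like cells (93.1 against 239 CPM, log2 1.36, 1.11 to 1.62) and DES-rich contractile-like cells (94.4 against 172 CPM). The ACTG2-rich population held contractile markers at 29862 and 30886 CPM, but also the 5 basal IFE markers at 7956 and 9365 CPM. The 7 DPC markers stood there at 526 CPM in the straight and 81.4 CPM in the curly library, with CORIN at 0 UMIs in both, and of the 7 contractile markers RGS5 was at 0 UMIs in both. The part of these markers in the CDKN1C difference was not tested.

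The course of the genes through keratinisation was read by sorting cells by the share of their UMIs in keratins. From matrix-like and IRS-like cells under 0.1% IRS keratins to those with 1 to 5%, CCND2 went from 169 to 18.2 CPM in the straight library and from 119 to 11.4 CPM in the curly library. CCND1 was lower as well, from 257 to 164 CPM and from 215 to 103 CPM, so it kept a larger part of its level than CCND2 did. CDKN1A ran the other way, from 201 to 355 CPM and from 150 to 291 CPM. Summed S phase genes went from 1191 to 214 CPM and from 1263 to 135 CPM over the same cells. CDKN1B was lower at the higher keratin share, with 61.1 against 33.2 CPM and 44.6 against 30.6 CPM. At 5% and over only 14 straight and 49 curly cells remained, with 2 CCND2 UMIs in each library. CDKN1A was lower again in the straight cells, with 173 CPM (121 to 241). In the curly cells it had 265 CPM (234 to 299), and this interval overlapped that at 1 to 5% (270 to 312). Scaled without the IRS keratins, it went between these classes from 362 to 191 CPM in straight cells. In curly cells it went from 297 to 301 CPM.

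The hair shaft gave the same picture for CCND2 and CDKN1A. Between under 0.1% and 1 to 5% hair shaft keratins, CCND2 went from 187 to 41.3 CPM and from 119 to 20.9 CPM, and CDKN1A from 216 to 572 CPM and from 154 to 371 CPM. CCND1 differed less, from 241 to 182 CPM and from 202 to 165 CPM. CDKN1B went from 59.9 to 24.8 CPM and from 44.8 to 23.1 CPM.

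The epidermis separated CCND1 from CCND2. From under 0.1% to 1 to 5% suprabasal keratins, CCND1 was higher, at 185 against 429 CPM in straight and 192 against 425 CPM in curly cells. CCND2 was lower, at 82.0 against 29.1 CPM and 34.9 against 10.3 CPM. CDKN1A was higher, at 359 against 662 CPM and 285 against 656 CPM, and lower again at 5% and over, with 524 and 328 CPM. These classes pool basal, KRT79-type and FLG-type suprabasal IFE-like cells, and were not split by population. CDKN1A stood at 356 and 225 CPM in basal, 766 and 726 CPM in KRT79-type and 383 and 312 CPM in FLG-type cells. In the same order, CCND1 stood at 214 and 306 CPM, 431 and 391 CPM, and 250 and 372 CPM. CDKN1C was lower with each keratin class, and reached 8.1 and 10.6 CPM in the most keratinised cells. CCND3 had no common course, since between the first and the third class it was lower in the straight library (81.9 and 52.2 CPM) and higher in the curly library (58.8 and 97.6 CPM).

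**Figure D4:**
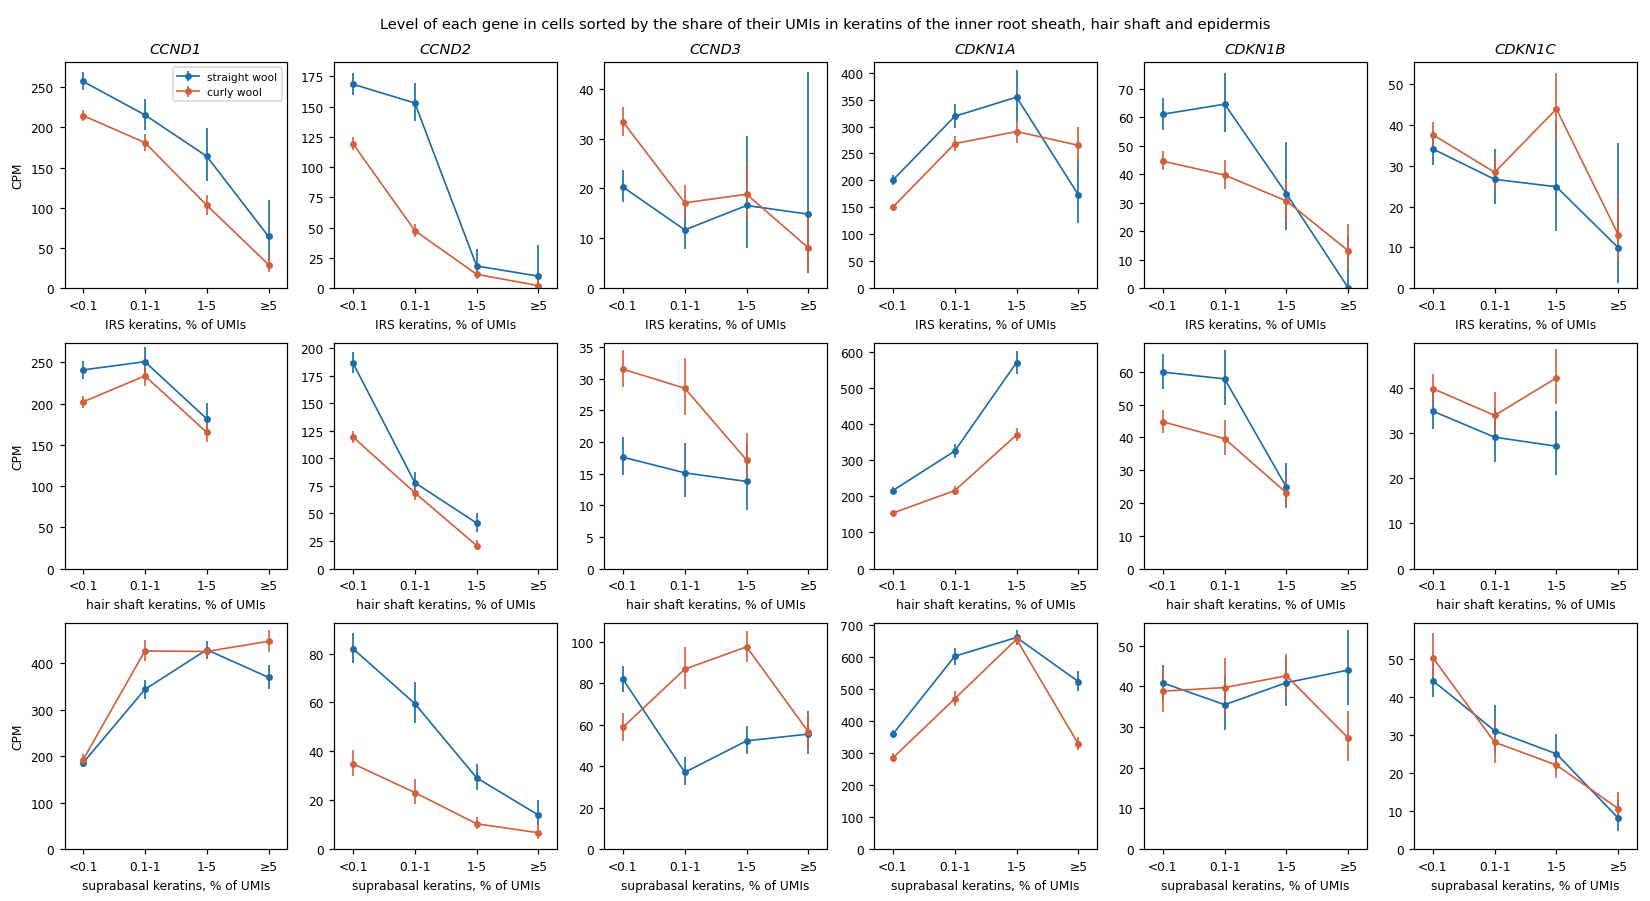
Level of each gene in CPM (vertical axes, from 0) in cells sorted by the share of their UMIs in IRS, hair shaft or suprabasal keratins (horizontal axes, in %), with straight wool in blue, curly wool in red and exact Poisson 95% intervals; the hair shaft class of 5% and over held 1 and 3 cells and is not drawn. CCND2 is lower at 1 to 5% than under 0.1% on all 3 axes in both libraries, CDKN1A is higher on all 3, and CCND1 is lower on the follicle axes and higher in the epidermis.

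Within the matrix-like population the genes also varied with the cell cycle. Cells thinned to 3000 UMIs were called G2/M with at least 3 UMIs of 16 G2/M genes, and S with at least 3 UMIs of 16 S phase genes and fewer of the former. There were 202 S and 197 G2/M cells in the straight library, and 404 and 314 in the curly library. CCND2 was lower in G2/M than in S cells, with 136 against 197 CPM in the straight library (log2 -0.53, -0.71 to -0.36) and 75.5 against 142 CPM in curly cells (log2 -0.91, -1.07 to -0.74). CCND1 had the same direction, with log2 ratios of -0.23 (-0.37 to -0.09) and -0.76 (-0.87 to -0.64). CCND3 was at 13.4 against 21.5 CPM and at 26.7 against 33.4 CPM.

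The inhibitors did not share this direction. CDKN1B was higher in G2/M than in S cells, with 82.1 CPM (72.6 to 92.5) against 52.0 CPM (44.7 to 60.2) in the straight library. In the curly library it was at 50.2 against 42.5 CPM, with a log2 ratio barely clear of 0 (0.24, 0.002 to 0.47). Cells without a UMI of either list, 25 straight and 46 curly, had 54.5 and 52.4 CPM. Between G2/M and S cells, CDKN1C was at 39.8 against 27.3 CPM and at 41.1 against 31.6 CPM. CDKN1A was at 223 against 191 CPM in straight cells (log2 0.23, 0.08 to 0.38), and at 152 against 148 CPM in curly cells, where the interval of the log2 ratio spanned 0 (-0.09 to 0.17). In cycling basal IFE-like cells of the straight library CCND2 stood at 112 CPM in 35 S cells and at 32.8 CPM in 136 G2/M cells, whereas CCND1 stood at 125 and 160 CPM. In the curly library the same population held only 18 S and 70 G2/M cells, with CCND2 at 85.3 and 16.1 CPM.

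**Figure D5:**
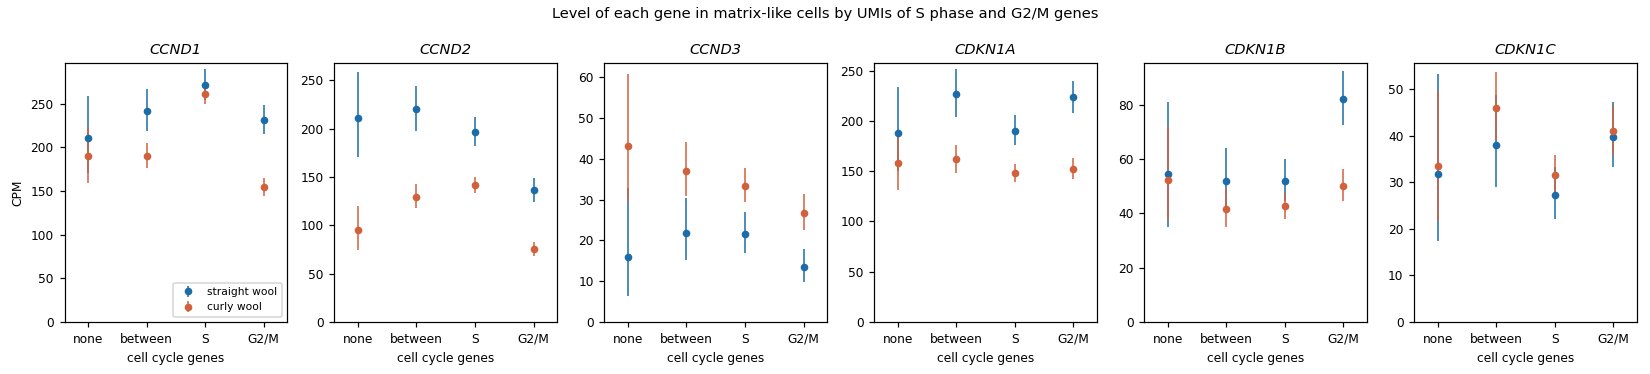
Level of each gene in CPM (vertical axes, from 0) in matrix-like cells by UMIs of cell cycle genes (none, between, S and G2/M), with straight wool in blue, curly wool in red and exact Poisson 95% intervals. CCND1, CCND2 and CCND3 are lower in G2/M than in S cells in both libraries, and CDKN1B and CDKN1C are higher, with the smallest gap for CDKN1B in the curly library (42.5 and 50.2 CPM).

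Partners of the 6 genes were taken from lists. CDK4, CDK6 and CDK2, the kinases that D and E cyclins bind, stood in matrix-like cells at 149, 61.9 and 47.8 CPM in the straight library and at 150, 63.1 and 48.8 CPM in the curly one. None of these 3 was past 1.5 times over all cells. Of the 3 INK4 inhibitors used here, which block CDK4 and CDK6, CDKN2B was higher in the curly library (2.85 against 7.16 CPM) and CDKN2D was lower (25.8 against 15.6 CPM). CDKN2C was highest in cycling basal IFE-like cells, at 59.1 and 83.5 CPM. None of 3 pocket proteins and none of 2 E cyclins was past the fold over all cells, and of 10 E2F and DP factors only E2F1 was, with 3.64 against 5.50 CPM. Of 9 genes of cyclin and inhibitor turnover, SKP2, which targets p27 for degradation, was higher (5.11 against 7.77 CPM). Of 16 S phase genes none, of 16 G2/M genes CCNB2 and PLK1 (both lower), and of the 13 genes of the immediate early list the heat shock gene HSPA1A (higher) were past the fold over all cells. In matrix-like cells the median log2 ratio was 0.00 over 16 S phase genes and -0.09 over 16 G2/M genes (1 of them, PLK1, lower by the fold), and the summed S phase level was 1250 and 1316 CPM. S phase genes with at least 100 UMIs were lower in the curly library by the fold in 7 of 9 in IRS-like cells (median log2 -0.91, 325 and 191 CPM summed), in 4 of 5 in LGR5-high HFSC-like cells (-0.68) and in 2 of 5 in KRT79-type suprabasal IFE-like cells (-0.54). In the last of these, 2 of 3 kinase partners were lower as well (median -0.61). CCND2 was lower by the fold in these IRS-like, LGR5-high HFSC-like and KRT79-type cells, as in 13 of the 14 populations with at least 100 CCND2 UMIs. Matrix-like cells were among the 13, though no S phase gene, and 10.9% of all genes, passed the fold there. No S phase gene passed the fold in basal IFE-like (of 14), cycling basal IFE-like (of 14) and hair shaft-like cells (of 9). There the CCND2 log2 ratios were -1.04, -1.04 and -0.74. In DPC-like cells 2 of 8 S phase genes were lower, and in PDPN-type HFSC-like cells 1 of 2. Of all genes with at least 100 UMIs, 15.69%, 17.78% and 17.97% were lower by the fold in IRS-like, LGR5-high and KRT79-type cells. In DPC-like and PDPN-type HFSC-like cells 14.91% and 15.11% were lower by it. In basal IFE-like, cycling basal IFE-like and hair shaft-like cells 18.99%, 19.62% and 13.99% were past the fold in either direction.

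The genes whose levels went most closely with each member were sought over 40 points (20 populations in each library), which share libraries and depth. CDKN1A had the closest company, with YWHAG (r = 0.84), EIF1 (0.83) and MAP2K3 (0.82), then CDKN1C with S100A13 (0.81), SDF4 (0.77) and FSTL1 (0.77), and CCND2 with HNRNPA0 (0.77) and LTBP4 (0.75). BRD2, LOC101108931 and WTAP were nearest to CDKN1B (0.73 to 0.70), TXNIP, SKAP2 and P2RX4 to CCND3 (0.70 to 0.69), and PPIA, VAPA and EEA1 to CCND1 (0.69 to 0.65). Among the members themselves, the highest values were 0.52 for CDKN1B with CDKN1C and 0.49 for CCND1 with CDKN1A. CCND1 with CCND2 had 0.22.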

How the data were processed

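Skin of 3 straight wool and 3 curly wool lambs gave 1 pooled 10× library per wool type. The authors aligned reads to Oar_rambouillet_v1.0 and counted UMIs; the submitters' processing notes name Cell Ranger 3.0.2, whereas the methods of the paper name another version. Per gene and cell, the deposited value is a natural log, taken of UMIs scaled to 10000 per cell with 1 added, as read from the values. Counts had been planned for, so each natural log value was turned back into UMIs, and 100% of 28552149 values were whole within 0.01. All 14037 cells of the table were used, fewer than the paper states. Genes are given by the symbols of the table, with no position, since the RefSeq annotation at hand (ARS-UI_Ramb_v3.0, used for 331 of 3912 LOC names) is of another assembly.

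Anchor integration in Seurat 5.3.0 under R 4.3.3 used 30 dimensions and 2000 variable genes, without 48 genes (the members and their pathway lists), and cells were clustered at resolution 0.3, the lowest in steps of 0.1 with at least 19 clusters. Names came from marker lists. A class was given where its markers averaged a log2 ratio of at least 1.25 to the other cells (5 CPM added) and more than any rival class, at least 3 of them were found in 10% of cells, and the 10 leading genes did not favour a rival. A cluster far shallower than its library stayed unnamed if no marker of its class was among the 10 leading genes, as in cluster 18. These limits were set after the data were seen, and another naming could move a value. Cycling was treated as a state. Scrublet, in scanpy 1.11.5, called only 58 (0.899%) and 2 (0.0264%) cells, so doublets were kept and the 6% with the highest scores left out as an alternative.

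UMIs were summed by population and library. Poisson, Clopper-Pearson and binomial-split 95% intervals are exact and cover counting error only. Ratios are called past the fold at 1.5 times for at least 100 UMIs, without a test. Shares were taken at 3000 UMIs per cell, which left out 1405 straight and 1912 curly cells. Likeness is the Pearson correlation of log2(CPM + 5) over genes with at least 500 UMIs. The ratio and its interval were tested on simulated counts. Members, lists and markers were chosen with earlier results of these data known. Named genes are the members, genes of the lists, markers of named clusters and the 3 most alike genes per member; 1 of the lists and 1 of the alike genes are not reported here. The scripts ran under Python 3.11.15 with scipy 1.17.1, matplotlib 3.10.9, numpy 2.4.6 and pandas 2.3.3.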

Additional observations from a re-analysis of the deposited data

Results flagged for a closer look

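For 4 of the 6 genes, the curly over straight log2 ratio was past the fold in opposite directions in different populations, with intervals on either side of 0. The difference between populations was not tested, since each wool type had 1 library. The most distant values are given here, and chance in the choice of the extremes was not assessed.

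CCND1 had a log2 ratio of 1.04 in DPC-like cells and of -2.16 in DES-rich contractile-like cells, so that 35.8 and 514 CPM in the straight library stood beside 73.7 and 115 CPM in the curly library. CCND3 had 1.24 in KRT79-type suprabasal IFE-like cells and -0.59 in basal IFE-like cells. In the straight library the basal cells had more of it (83.5 against 35.6 CPM), and in the curly library the suprabasal cells did (55.5 against 84.1 CPM). CDKN1A had 0.90 in ACTG2-rich contractile-like cells and -1.99 in DPC-like cells. CDKN1C had 2.34 in ACTG2-rich contractile-like cells and -0.72 in FLG-type suprabasal IFE-like cells, the latter from 77 and 56 UMIs. In the ACTG2-rich population 19.8% of all genes with at least 100 UMIs were higher by the fold.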

How the results depend on the processing

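No paired analysis was possible because each wool type had 1 library and no replicate numbers. The class with the highest level stayed the same for 7 of the 12 pairs of a gene and a library at resolution 0.8, and for 6 of 12 when a stricter minimum of genes per cell was used. That minimum left too few TPSB2-type immune-like (40 and 4), DES-rich contractile-like (18 and 27) and straight ACTG2-rich contractile-like cells (48) for these populations to be ranked. The class stayed the same for 12 without the cells of highest doublet scores, and for 10 when CPM was averaged over cells. At resolution 0.8 the highest CCND2 was in an unnamed cluster led by STC1 (232 and 133 CPM), above the matrix-like cluster (162 and 110 CPM). A second sweat gland-like cluster, led by LCN2, had CCND2 at 118 and 53.5 CPM, while the cluster led by TFF3 again had 0 UMIs. CCND2 was lower in the curly library by the fold in 12 of 14 populations when centred on the median gene, 12 of 13 without doublets, 12 of 13 with the stricter minimum of genes and 14 of 17 at resolution 0.8, an alternative added after the data were seen; there the FGF7-led DPC-like cluster had 48.6 and 48.2 CPM. The 37 ratios past the fold became 38, 41, 35 and 45 under the same alternatives. Counts along keratin share and over the cell cycle stayed within 1.5 times. Thinning to 5000 UMIs raised the CCND2 share of matrix-like cells to 51.6% and 43.4%, and of DPC-like cells from 13.5% and 7.18% to 18.8% and 13.2%. With a pseudocount of 1 the nearest genes shared were 1 of 3 for CCND2, 2 of 3 for CCND1 and CDKN1C, and 3 of 3 for the others. No direction of a called ratio was reversed when centred, without doublets or with the stricter minimum of genes, where at least 100 UMIs remained. At resolution 0.8 the clusters are others, so single directions were not compared. Among single ratios, 10 of 90 moved with the stricter minimum of genes, 8 of 97 when centred and 3 of 93 without doublets. Ratios of CCND2 were not read in the sweat gland-like, both immune-like, DES-rich, KLK-rich and cluster 18 populations, which held under 100 UMIs of it.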
